A study of Homo sapiens with 6 samples.

Results

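The 34 genes described here encode chaperones and folding enzymes of the endoplasmic reticulum (ER) and the sensors, transcription factors and targets of the unfolded protein response. They were chosen by name as genes of the pathway, with earlier results of these data known, and all 34 were found among the 26372 gene symbols of the deposited table. RNA was measured in SH-SY5Y, a human neuroblastoma cell line with neuron-like features, in 3 libraries of cells with a control hairpin (shNC) and 3 libraries of cells whose hairpin targets TDP-43 (shTDP43), the RNA-binding protein encoded by TARDBP. Both hairpins were delivered by a lentiviral vector with a U6 promoter. The protocol in the labels describes stable knockdown cells selected with 2 µg/mL puromycin for 2 weeks and then kept in 1 µg/mL, and does not say separately how the control cells were selected. The samples analysed here hold no second hairpin label and no rescue, so other effects of the hairpin or of the infected population cannot be told apart from loss of TDP-43. No source used here ties the replicates to separate cultures or infections, and p-values therefore measure the spread between these libraries, which may be technical. Values are FPKM, that is, fragments scaled by gene length and by library, and absolute read depth is unknown.

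Proteins bound for secretion, membranes and lysosomes fold in the ER with the help of chaperones, disulfide isomerases and lectins. When unfolded proteins accumulate, membrane sensors respond. PERK (EIF2AK3) phosphorylates the initiation factor eIF2 and thereby favours translation of ATF4. IRE1 (ERN1) splices the mRNA of XBP1. ATF6 is cut in the Golgi to release a transcription factor. The resulting transcription factors raise chaperones and the ER-associated degradation (ERAD) machinery, which returns misfolded proteins to the cytosol for the proteasome. Splicing of XBP1, cleavage of ATF6, phosphorylation of eIF2 and translation of ATF4 are not visible in a sum of reads per gene and were not analysed here.

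The best known response element of this pathway is the ER stress response element (ERSE), which pairs a binding site of the factor NF-Y with one bound by ATF6 or XBP1. Short motifs were searched on both strands in the 250 bases before 1 transcript start per gene, in RefSeq promoters of GRCh38.p14, where 32 of the 34 genes had an entry. For 25 of the 32 that start is the outermost of the gene. For the other 7 (EIF2AK3, DDIT3, TRIB3, PDIA4, DERL2, CANX and PDIA6) the searched bases reach into the gene's span. The ERSE (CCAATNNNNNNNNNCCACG) was found before 6 of these 32 genes and before 22 of all 27305 promoters (0.0806%), the 6 included, or 0.133% of the 9778 promoters of tested genes. ERSE-II (ATTGGNCCACG) was found before 3 of the 32 and 14 of all promoters (0.0513%). The XBP1-type element UPRE (TGACGTGG) was found before 2 of the 32 and 182 of all (0.667%), and its core TGACG before 12 of the 32 and before 21.7% of all, or 30.4% of those of tested genes. The ATF4-type element CARE (TTNCATCA) was found before 3 of the 32 and 870 of all (3.19%), or 1.33% of those of tested genes. A match is a description of these letters and not a measured binding site. The ERSE is known as an element of this pathway, so its share among these genes is a description and no test. The stretches below are those of the 6 genes that hold an ERSE. Among them HSPA5 and CALR rose, HSP90B1, CRELD2 and XBP1 did not pass the test, and CANX fell, a call that was lost in 8 of 14 alternative settings. The stretch of CANX precedes an inner start, and the bases searched there end 20273 bases into the gene. Each is written 5′ to 3′ in the direction of transcription, and capitals mark the fixed letters of the matched motif.
HSPA5 (minus strand, chr9:125241376-125241424): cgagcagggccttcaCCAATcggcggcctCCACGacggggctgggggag
CALR (plus strand, chr19:12938369-12938417): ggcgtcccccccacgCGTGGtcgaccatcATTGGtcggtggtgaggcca
CRELD2 (plus strand, chr22:49918539-49918587): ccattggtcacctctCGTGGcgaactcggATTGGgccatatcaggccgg
XBP1 (minus strand, chr22:28800588-28800636): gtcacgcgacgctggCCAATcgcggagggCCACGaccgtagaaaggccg
HSP90B1 (plus strand, chr12:103930201-103930354): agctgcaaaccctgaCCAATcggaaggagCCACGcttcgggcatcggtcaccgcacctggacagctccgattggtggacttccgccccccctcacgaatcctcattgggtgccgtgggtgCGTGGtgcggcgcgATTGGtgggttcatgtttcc
CANX (plus strand, chr5:179698763-179698811): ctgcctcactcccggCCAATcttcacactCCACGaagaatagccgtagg

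In CALR and CRELD2 the element lies on the other strand, and HSP90B1 holds it once on each strand. ERSE-II stood before HYOU1, SDF2L1 and HERPUD1, with a pair of copies before HYOU1, where the upstream one overlaps a UPRE. The ATF4-type element stood before CHAC1, PPP1R15B and HERPUD1. The stretch of CHAC1, a known target of ATF4, is printed beside that of HERPUD1, which holds both an ATF4-type element and an ERSE-II.
CHAC1 (plus strand, chr15:40953247-40953284): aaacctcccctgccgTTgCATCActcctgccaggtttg
HERPUD1 (plus strand, chr16:56931951-56932050): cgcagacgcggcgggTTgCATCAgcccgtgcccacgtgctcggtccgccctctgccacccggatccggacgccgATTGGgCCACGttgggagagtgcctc

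Of the 34 genes, 6 were higher and 6 lower in shTDP43 at a limma adjusted p under 0.05, which is 35.3%. Over all 13263 tested genes (mean of at least 1 FPKM) the share was 38.1%, with 18.5% higher and 19.6% lower. The share among the 34 is therefore near that of any gene in this comparison. All 34 passed the minimum level. The groups did not overlap for 19 of the 34 genes, 12 higher and 7 lower, against 50.7% of all tested genes. With quantile normalization the split was 8 higher and 5 lower, and the median log2 fold change of all tested genes moved up to 0.0176. The shares of all tested genes given above belong to the fit without that step, so this split has no background share beside it. The summed level of the 34 genes was 1469 ± 6.19 FPKM in shNC and 1477 ± 13.4 FPKM in shTDP43 (SD, n = 3; exact two-sided permutation p = 0.5, where 0.1 is the smallest possible). The median log2 fold change was 0.01, against 0.00122 over all tested genes. Changes were small, from a log2 difference of -0.54 for EDEM1 to 0.22 for PPP1R15A. EDEM1 changed by more than 96.0% of all tested genes, and DDIT3 and TRIB3 by more than 92.8% and 87.1%.

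**Figure D1:**
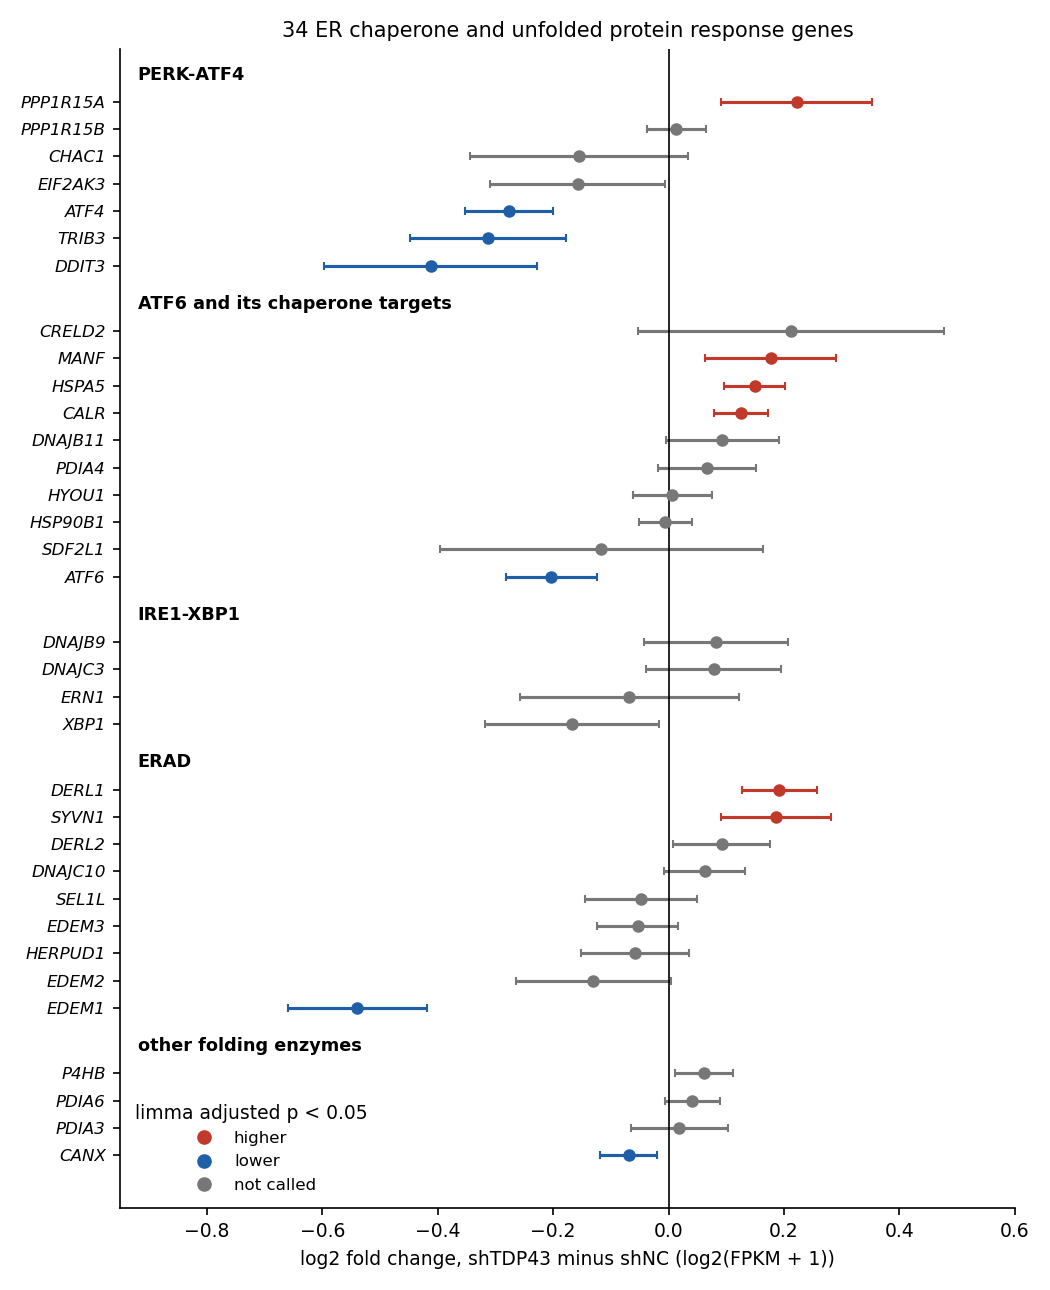
Log2 fold change of each of the 34 genes (horizontal axis, shTDP43 minus shNC on the log2(FPKM + 1) scale) with its 95% interval, grouped by role; red marks genes higher and blue genes lower at a limma adjusted p under 0.05, grey the rest. Of the 6 lower calls 3 sit in the PERK-ATF4 arm, EDEM1 is farthest from 0 at -0.54, and none of the 4 IRE1-XBP1 genes is coloured.

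Some facts of the libraries bear on all of these values. TARDBP, the targeted gene, had 56.3 ± 0.288 FPKM in shNC and 34.6 ± 1.43 in shTDP43 (SD, n = 3) and thus fell to 61.5% of control. Steps among the lowest values put relative depth between 1.16 and 1.27 in shNC and between 1 and 1.117 in shTDP43, where 1 is the shallowest library. Relative depth was thus higher in each shNC library, and its part in these results was not tested. ShNC replicate 1 and shTDP43 replicate 3 were low in the small nucleolar RNA SNORD3A, at 11541 and 8551 FPKM against 137209 or more in the others. Noradrenergic markers of SH-SY5Y were abundant, with 11 of 12 tested, 7 higher and 3 lower, and a summed level of 1740 to 1746 FPKM in shNC and 1947 to 2005 in shTDP43, although TH stayed under the level tested. Of all tested genes 18.5% were higher and 19.6% lower. Markers of the mesenchymal type of neuroblastoma cell were lower in 9 of 11 tested genes and higher in 2. The sum of these markers was 511 to 518 FPKM in shNC and 450.3 to 463 in shTDP43. TWIST1, 1 of the 2 higher genes, held much of that sum, with means of 184 FPKM in shNC and 267 in shTDP43. The sum therefore understates the falls of the 9 lower genes, among them VIM at 65.8% and LGALS1 at 61.1% of control. The part of the marker changes in the results below was not tested. In bulk RNA, fewer cells of a type and less RNA per cell cannot be told apart. Only 2 of the 19 markers of glia, blood, endothelium and epithelium were high enough to test, and HBB, KRT5 and KRT14 were listed at 0 in all libraries.

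The PERK-ATF4 arm was lower in 3 of its 7 genes and higher in 1, where 19.6% of all tested genes were lower and 18.5% higher, and its median log2 fold change was -0.16. That median was -0.09 without shNC replicate 1 and shTDP43 replicate 3, and -0.23 without shNC replicate 3. ATF4 encodes the transcription factor at the centre of the integrated stress response. It stood at 119.7, 115.6 and 115.5 FPKM in the shNC libraries and at 97.3, 100.01 and 92.1 FPKM in the shTDP43 libraries. The groups did not overlap, and ATF4 fell to 82.5% of control (log2 fold change -0.28, SE 0.03; limma adjusted p = 0.000446). ATF4 (chromosome 22, 39520559 to 39522686) was the most abundant gene of the arm.

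DDIT3 encodes CHOP, a C/EBP-family factor induced by ATF4 that is known for promoting cell death under lasting ER stress. Its levels were 7.32, 8.92 and 7.73 FPKM in shNC and 5.79, 6.23 and 5.23 FPKM in shTDP43. Every shTDP43 library lay below every shNC library, at 72.0% of control in the mean (log2 fold change -0.41, SE 0.08; limma adjusted p = 0.00481). DDIT3 (chromosome 12, 57516588 to 57520517) shares exon bases with the opposite-strand genes MARS and MBD6 in GENCODE 29, and although the library kit marks strand, no source used here says whether the counting used it, so its value is uncertain. MARS had 54.3 ± 2.47 and 51.8 ± 1.90 FPKM (SD, n = 3) and did not pass the test, while MBD6 rose from 7.33 ± 0.334 to 8.61 ± 0.609 FPKM.

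TRIB3 encodes a pseudokinase that is induced by ATF4 and CHOP and restrains ATF4. It had 7.01, 6.94 and 6.86 FPKM in shNC and 5.75, 5.54 and 4.91 FPKM in shTDP43. The control libraries agreed closely with one another, the shTDP43 libraries lay below them, and TRIB3 fell to 77.9% of control (log2 fold change -0.31, SE 0.06; limma adjusted p = 0.00410). CHAC1 encodes an enzyme that degrades glutathione and is induced by ATF4. Its mean was 4.76 ± 0.534 FPKM in shNC and 4.16 ± 0.316 FPKM in shTDP43 (SD, n = 3), the groups overlapped, and the difference missed the threshold (limma adjusted p = 0.171). CHAC1 passed as lower without shNC replicate 3 (limma adjusted p = 0.0465).

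EIF2AK3, the gene of the sensor PERK, had 5.60, 5.05 and 5.34 FPKM in shNC and 4.53, 5.13 and 4.39 FPKM in shTDP43. The second shTDP43 library lay within the control range, and the log2 difference of -0.16 (95% interval -0.31 to -0.01) did not pass (limma adjusted p = 0.0946). Without shTDP43 replicate 2 it passed as lower (limma adjusted p = 0.0401). PERK was the lowest of the 4 kinases of eIF2 in this line. EIF2AK1, the haem-regulated kinase, had 78.4 ± 1.92 FPKM in shNC, EIF2AK2 (PKR) 34.9 ± 0.70 and EIF2AK4 (GCN2, which senses uncharged tRNA) 14.6 ± 0.278 (SD, n = 3). Of these 4 kinases only EIF2AK4 passed the test, at 88.4% of control (limma adjusted p = 0.00903).

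PPP1R15A and PPP1R15B encode the subunits that direct a phosphatase to eIF2 and so end the response. PPP1R15A, the stress-induced GADD34, was the only gene of the arm that rose. Its levels were 15.3, 13.9 and 13.03 FPKM in shNC and 16.01, 16.4 and 17.3 FPKM in shTDP43. The groups did not overlap, although the highest control and the lowest shTDP43 library were close, and the mean reached 118% of control (limma adjusted p = 0.0167). Without shTDP43 replicate 3 the log2 fold change was 0.19, against 0.22 with all libraries, and missed the threshold (limma adjusted p = 0.0570). PPP1R15B, the constitutive subunit, was the more abundant of the pair, at 41.3 ± 0.131 and 41.7 ± 0.201 FPKM (SD, n = 3), and the 95% interval of its log2 difference ran from -0.04 to 0.06.

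**Figure D2:**
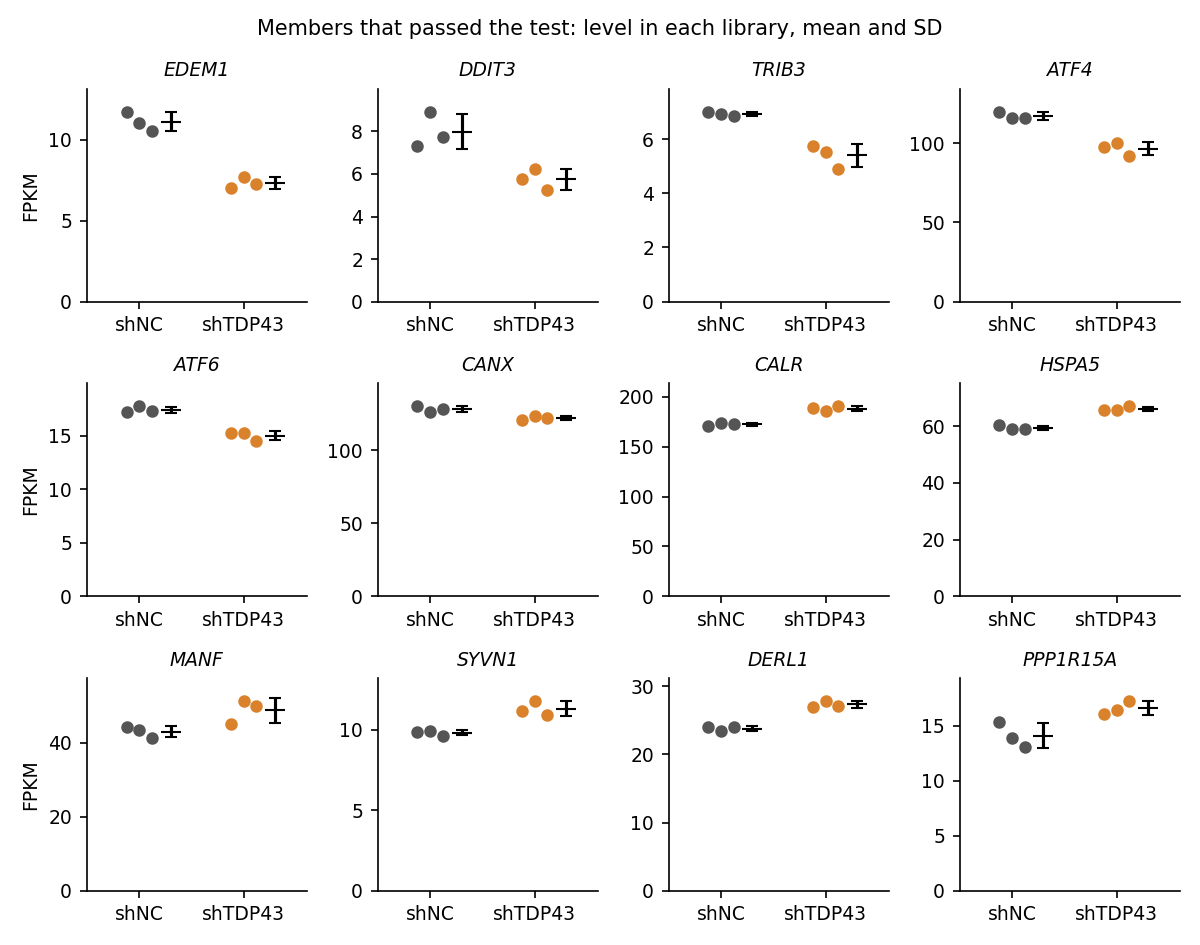
Level in FPKM (vertical axes, from 0) of the 12 genes that passed the test, in each shNC (grey) and shTDP43 (orange) library, ordered from the largest fall to the largest rise; the bar beside each group is the mean with the SD over 3 libraries. In each panel the groups do not overlap, with EDEM1 at 66.0% of control at one end and PPP1R15A at 118% at the other.

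Other genes around PERK and ATF4 were taken from a list of eIF2 kinases and subunits, ATF4 partners and ATF4 targets, which was also chosen with earlier results of these data known. Of its 35 tested genes 18 fell, 3 rose and 14 did not pass (51.4% lower, against 19.6% of all tested genes), with a median log2 fold change of -0.13. The counts were 14 and 3 without shNC replicate 1 and shTDP43 replicate 3. Fewer of all tested genes were higher in that smaller fit, and the 19.6% above belongs to the fit of all libraries. The largest falls were those of ATF3, a stress-induced factor of the same family, from 13.9 ± 0.186 to 8.35 ± 0.467 FPKM and CEBPB, a C/EBP partner of ATF4, from 2.86 ± 0.182 to 1.77 ± 0.370 FPKM (SD, n = 3), or to 60.1% and 61.9% of control. ASNS, the asparagine synthetase and a classical ATF4 target, had 76.2% of control, the stress sensor SESN2 67.3% and PHGDH, the first enzyme of serine synthesis, 78.2%, and each of these fell. SLC7A11, the cystine transporter, was under the level tested and had 1.35, 1.42 and 1.35 FPKM in shNC and 0.596, 0.567 and 0.595 FPKM in shTDP43. PSAT1, an enzyme of serine synthesis, rose to 113% of control. The other rises were EIF2S1, the subunit of eIF2 that PERK phosphorylates, at 114%, and EIF2B1, a subunit of its exchange factor, at 117%. ASNS, SESN2, PHGDH, SLC7A11 and PSAT1 were named after their values were seen.

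ATF6 and its chaperone targets moved in different directions. The sensor fell while 3 of the 9 targets rose and the other 6 did not pass the test. Of the 10 genes 30% were higher and 10% lower, against 18.5% and 19.6% of all tested genes. The rise of MANF was lost in 6 of 14 alternative settings. The median log2 fold change of the 10 genes was 0.08, or 0.03 without shNC replicate 1 and shTDP43 replicate 3. ATF6 had 17.2, 17.8 and 17.3 FPKM in shNC and 15.3, 15.3 and 14.5 FPKM in shTDP43. Its groups did not overlap, and ATF6 fell to 86.1% of control (log2 fold change -0.20, SE 0.03; limma adjusted p = 0.00248).

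HSPA5 encodes BiP, the HSP70 chaperone of the ER lumen, which also holds the sensors inactive. It had 60.4, 58.9 and 59.2 FPKM in shNC and 65.6, 65.6 and 67.1 FPKM in shTDP43. The libraries of each group lay close together, and HSPA5 (chromosome 9, 125234853 to 125241343) rose to 111% of control (log2 fold change 0.15, SE 0.02; limma adjusted p = 0.00153). CALR encodes calreticulin, a calcium-binding lectin chaperone of the lumen. It had 171, 174 and 173 FPKM in shNC and 189, 186 and 191 FPKM in shTDP43, a rise to 109% of control (limma adjusted p = 0.00210).

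MANF encodes a small secreted ER protein that binds BiP and protects neurons. It had 44.4, 43.4 and 41.4 FPKM in shNC and 45.1, 51.4 and 50.1 FPKM in shTDP43. The first shTDP43 library lay just above the highest control and the other two stood well above it. The mean was 113% of control (limma adjusted p = 0.0235), and MANF missed the threshold when any one of shNC libraries 2 and 3 and shTDP43 libraries 2 and 3 was left out (limma adjusted p from 0.0518 to 0.0748).

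HSP90B1 encodes GRP94, the HSP90 of the ER, and was the most abundant of the 34 genes. It had 229, 226 and 228 FPKM in shNC and 226, 229 and 224 FPKM in shTDP43. The groups overlapped fully, and the 95% interval of the log2 difference, -0.05 to 0.04, did not reach the 0.15 measured for HSPA5. HYOU1 encodes a large HSP70-like exchange factor for BiP. Its mean was 38.2 ± 1.07 FPKM in shNC and 38.4 ± 0.733 FPKM in shTDP43 (SD, n = 3; 95% interval -0.06 to 0.07).

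The remaining targets were less certain. PDIA4, a disulfide isomerase, had 105% and DNAJB11, an HSP40 co-chaperone of BiP, 107% of control (limma adjusted p = 0.192 and 0.118). DNAJB11 did not overlap between the groups, by a small gap between 37.0 FPKM in the highest control and 37.4 in the lowest shTDP43 library. CRELD2, an ER-stress-induced secreted protein, had 6.42, 8.27 and 9.20 FPKM in shNC and 8.31, 9.49 and 10.2 FPKM in shTDP43. Its groups overlapped, and the interval of -0.05 to 0.48 was wide (limma adjusted p = 0.182). SDF2L1, a partner of the ER co-chaperones, had 4.95, 6.68 and 5.39 FPKM in shNC and 4.32, 5.08 and 6.08 FPKM in shTDP43, with an interval of -0.40 to 0.16. CRELD2 shares exon bases with ALG12 on the opposite strand, which had 3.68 ± 0.551 and 4.09 ± 0.452 FPKM.

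Of 15 tested genes in a list on the processing and partners of ATF6, 5 fell and 1 rose (33.3% and 6.67%). Over all tested genes 19.6% fell and 18.5% rose. This list was also chosen with earlier results of these data known. WFS1, an ER membrane protein that limits ATF6 signalling, fell to 79.5% of control and NUCB2, a calcium-binding protein, to 83.1%. CREBZF, a regulator of the ATF6 family, rose to 107%. MBTPS2, the protease that makes the second cut in ATF6, fell to 85.3% of control, with 24.8 ± 0.580 FPKM in shNC and 21.1 ± 0.718 in shTDP43 (SD, n = 3), and ATF6B, the paralogue of ATF6, had 89.7% (limma adjusted p = 0.00174 and 0.0447). These last 2 genes were named after their values were seen.

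None of the 4 genes of the IRE1-XBP1 arm passed the test, which 38.1% of all tested genes passed. EDEM1, a known XBP1 target, is counted with the ERAD genes below. ERN1, the gene of IRE1, was the lowest of the 34 genes, with a mean of 2.13 ± 0.211 FPKM in the controls and 1.98 ± 0.160 in shTDP43 (SD, n = 3; limma adjusted p = 0.553). XBP1 had 28.0, 33.9 and 33.3 FPKM in shNC and 28.8, 27.6 and 27.8 FPKM in shTDP43. The first control library, one of the pair low in SNORD3A, lay at the level of the shTDP43 libraries and apart from the other controls. The log2 difference was -0.17 (95% interval -0.32 to -0.02; limma adjusted p = 0.0783). Without shNC replicate 1, XBP1 was lower by -0.25 and passed (limma adjusted p = 0.00187), and it also passed without both libraries low in SNORD3A (limma adjusted p = 0.00896). The spliced form of XBP1 cannot be read from these values.

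DNAJB9, an HSP40 co-chaperone that keeps IRE1 inactive through BiP, had 13.5, 12.7 and 12.9 FPKM in shNC and 14.3, 14.6 and 12.7 FPKM in shTDP43. The third shTDP43 library lay among the controls, and without it DNAJB9 passed as higher (limma adjusted p = 0.0458, against 0.267 with all libraries). DNAJB9 shares exon bases with THAP5 and PNPLA8 on the opposite strand, so its value is uncertain. These had 36.6 ± 0.882 and 17.2 ± 0.735 FPKM in shNC (SD, n = 3), and neither passed the test. DNAJC3, known as P58IPK, a BiP co-chaperone that was first described as an inhibitor of PKR, had 106% of control (limma adjusted p = 0.263). Of 33 further tested genes of the IRE1-XBP1 list, which covers protein translocation into the ER and export from it, 6 rose and 5 fell (18.2% and 15.2%), close to the shares of all genes. SPCS3, a subunit of the signal peptidase, rose to 114% and SSR2, of the translocon-associated complex, to 108% of control. SEC24D, a coat protein of ER export, fell to 83.9% and ARFGAP3, a regulator of Golgi transport, to 85.8%.

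In the ERAD group 1 gene fell and 2 rose, and the other 6 did not pass. The shares of 11.1% lower and 22.2% higher stood against 19.6% and 18.5% of all tested genes. EDEM1 encodes a mannosidase-like lectin that takes misfolded glycoproteins out of the folding cycle and is a known XBP1 target. It had 11.7, 11.1 and 10.6 FPKM in shNC and 7.03, 7.73 and 7.27 FPKM in shTDP43. The gap between the groups was wider than the range within either, and EDEM1 (chromosome 3, 5187707 to 5219958) fell to 66.0% of control (log2 fold change -0.54, SE 0.05; limma adjusted p = 0.000146). It kept the call in all 14 alternative settings, with a log2 fold change between -0.60 and -0.50.

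Its relatives EDEM2 and EDEM3, which trim mannose from the same glycoproteins, did not pass. EDEM2 had 6.22 ± 0.319 FPKM in shNC and 5.60 ± 0.332 FPKM in shTDP43 (limma adjusted p = 0.113), and EDEM3 22.6 ± 0.246 and 21.7 ± 0.550 FPKM (limma adjusted p = 0.199; SD, n = 3). EDEM1 made up 27.9 ± 1.29% of the summed FPKM of the 3 genes in shNC and 21.2 ± 0.798% in shTDP43, a share chosen after its values were seen that restates the fall of EDEM1.

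The 2 ERAD genes that rose belong to the membrane complex through which substrates leave the ER. SEL1L and HERPUD1, which belong to it too, did not pass the test. SYVN1 encodes HRD1, the ubiquitin ligase of that complex. It had 9.89, 9.94 and 9.64 FPKM in shNC and 11.2, 11.8 and 10.9 FPKM in shTDP43, a rise to 115% of control (limma adjusted p = 0.00907). SYVN1 shares exon bases in GENCODE 29 with FAU, a ribosomal protein gene on the same strand at 528 ± 13.7 and 508 ± 17.5 FPKM (SD, n = 3), and with the opposite-strand gene MRPL49 at 14.1 ± 0.602 and 15.2 ± 0.492 FPKM, neither of which passed the test. The value of SYVN1 is therefore uncertain. DERL1 encodes derlin-1, a membrane protein of the retrotranslocation channel. It had 24.1, 23.4 and 24.0 FPKM in shNC and 27.0, 27.9 and 27.1 FPKM in shTDP43, with no overlap, and rose to 115% of control (log2 fold change 0.19, SE 0.03; limma adjusted p = 0.00124). Its overlapping gene TBC1D31 had 7.44 ± 0.403 and 7.47 ± 0.587 FPKM and did not pass.

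The other ERAD genes differed little. DERL2, the paralogue of DERL1, had 12.6 ± 0.306 and 13.5 ± 0.320 FPKM (SD, n = 3) with no overlap but did not pass (limma adjusted p = 0.0792), and it shares exon bases with MIS12, a kinetochore gene on the opposite strand that rose to 119% of control. SEL1L, the partner of HRD1, had 96.5% and HERPUD1, a ubiquitin-like scaffold of the complex, 95.7% of control (limma adjusted p = 0.3996 and 0.294). DNAJC10, a reductase that unfolds substrates for export, had 105% (limma adjusted p = 0.139). Of 36 further tested ERAD genes 4 rose and 4 fell (11.1% each, against 18.5% and 19.6% of all tested genes). UFD1L, which recruits the segregase p97 to ubiquitinated substrates, rose to 119% and UBE2G2, an ubiquitin-conjugating enzyme of ERAD, to 110.5% of control. FBXO2, which recognises glycoproteins in the cytosol, fell to 53.7% of control.

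The folding enzymes outside these arms had means between 95.3% and 104% of control. CANX encodes calnexin, the membrane-bound counterpart of calreticulin. It had 130.04, 126 and 128 FPKM in shNC and 121, 123 and 122 FPKM in shTDP43, and its groups did not overlap. CANX fell to 95.3% of control (limma adjusted p = 0.0359), but the call was lost in 8 of 14 alternative settings, quantile normalization among them (limma adjusted p = 0.425). It passed without shNC replicate 2 and not without any other single library. CANX amounted to 74.2 ± 1.78% of CALR in shNC and 64.7 ± 1.25% in shTDP43 (SD, n = 3), a ratio of levels per length that was chosen after its values were seen and restates the calls of both genes.

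PDIA3 (ERp57), the isomerase that works with both lectins, had 64.0 ± 2.25 and 64.9 ± 2.50 FPKM (limma adjusted p = 0.716). Its processed copy PDIA3P1 had 6.14 ± 0.459 and 5.70 ± 0.0720 FPKM, so reads of PDIA3 may be split. P4HB, the classical protein disulfide isomerase, had 65.9 ± 0.602 and 68.8 ± 0.813 FPKM, 104% of control, and PDIA6 had 155 ± 2.21 and 160 ± 0.408 FPKM, 103% of control (SD, n = 3; limma adjusted p = 0.0590 and 0.145). Both passed as higher with quantile normalization (limma adjusted p = 0.0258 and 0.00264). Under that setting the median log2 fold change of all tested genes moved up as well, to 0.0176. Of 42 further genes of folding and glycan processing 5 rose and 4 fell (11.9% and 9.52%, against 18.5% and 19.6% of all tested genes). FKBP10, a collagen chaperone, rose to 118% and UGGT2, a folding sensor of glycoproteins, to 110.4% of control, while the prolyl isomerase FKBP9 fell to 84.1% and DAD1, a subunit of the oligosaccharyltransferase, to 88.7%.

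**Figure D3:**
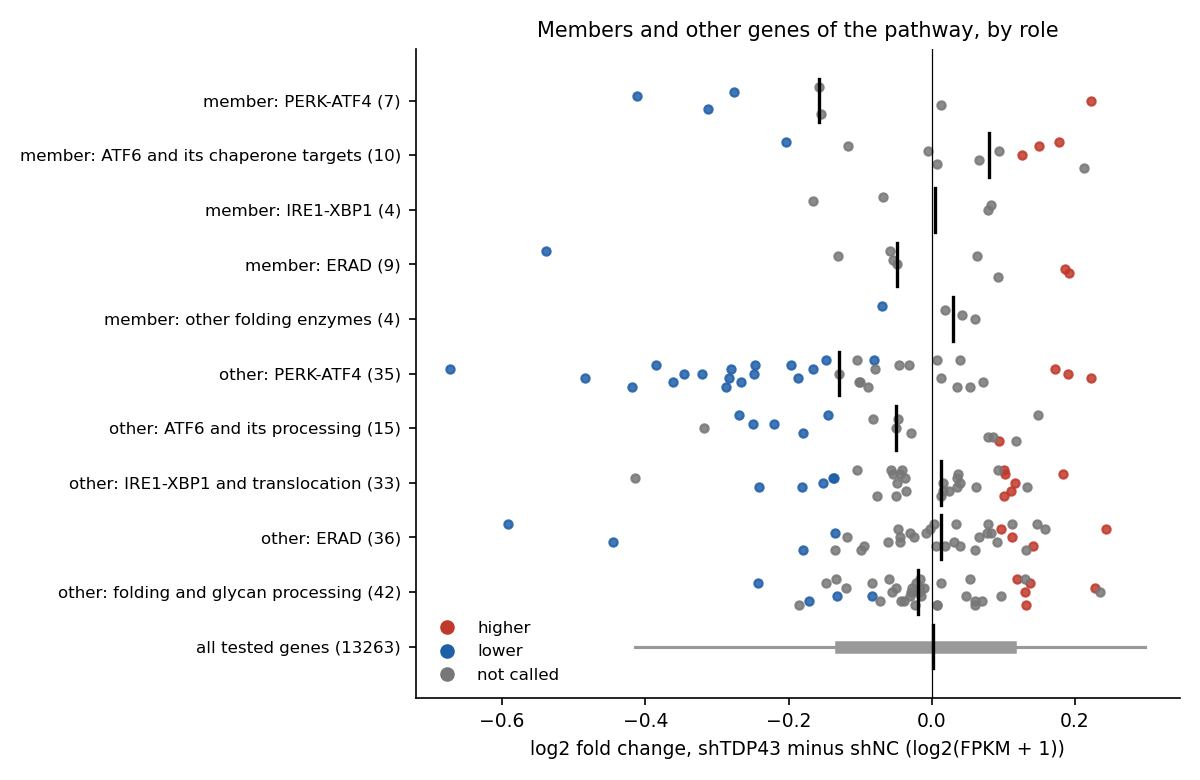
Log2 fold change (horizontal axis, shTDP43 minus shNC on the log2(FPKM + 1) scale) of the 34 genes and of the other tested pathway genes by role, with the number of genes in brackets; dots are genes, coloured red or blue where the limma adjusted p was under 0.05, and black bars are medians. The lowest row gives the median, the middle 50% (thick) and the range from the 5th to the 95th percentile of all tested genes; the blue dots are densest among the other PERK-ATF4 genes, where 18 of 35 fell.

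By level, the 34 genes ranged from 1.98 FPKM for ERN1 to 228 FPKM for HSP90B1. At the top stood HSP90B1, CALR, PDIA6 and the membrane-bound CANX, above 100 FPKM in both groups, together with ATF4 in shNC. Other folding genes such as SDF2L1 and DNAJC3 had only 5.67 and 6.73 FPKM in shNC. The sensors were low, at 2.13 FPKM for ERN1, 5.33 for EIF2AK3 and 17.4 for ATF6 in shNC, and each was lower on average in shTDP43, although only ATF6 passed the test.

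**Figure D4:**
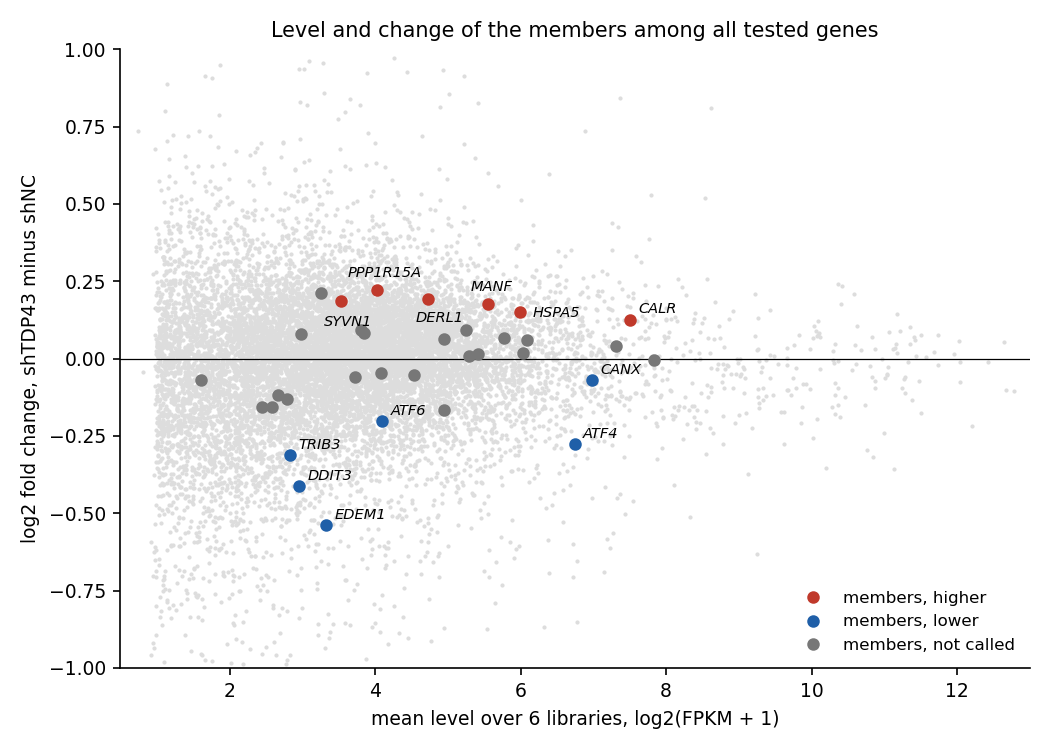
Change (vertical axis, log2 fold change, shTDP43 minus shNC) against mean level (horizontal axis, log2(FPKM + 1) over 6 libraries) for all tested genes (light grey) and the 34 genes (red higher, blue lower, dark grey not called); 130 genes beyond the axes are not drawn. EDEM1 is the lowest of the 34 genes at -0.54, ATF4 stands at -0.28, and CALR and HSPA5 lie above 0 at 0.13 and 0.15.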

How the data were processed

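Poly(A) RNA of 6 SH-SY5Y libraries, 3 per group, was sequenced by the authors, who deposited FPKM values per gene symbol. Per the submitters' processing notes, the tools were TopHat2 2.1.0, SAMtools and Cuffdiff 2.2.1, with build hg38. For the annotation, the strand setting and the scaling of libraries, the sources used here give nothing. FPKM carry no counts, so no count model was used. Absolute depth is unknown. Relative depth was taken as the most frequent ratio among 1655 low genes.

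The test was limma 3.58.1 (R 4.3.3) on log2(FPKM + 1), with group as the only term, a trend on level, two-sided p-values and Benjamini-Hochberg adjustment over the 13263 genes whose mean reached 1 FPKM. Percentages of control are ratios of mean FPKM, since the log scale understates changes of low genes. The fit was tested on simulated data. The 34 genes, their split into arms and the lists of other pathway genes and markers were chosen with earlier results of these data known. All 34 were named, with, per role of the other genes, the 2 largest rises and 2 largest falls that passed. One item that this rule names is not reported here. Gene locations and promoters came from RefSeq (GRCh38.p14), exon overlaps from GENCODE 29. Protein sequences were not used here. Alternatives changed the pseudocount, filter, scaling, replicate block and libraries used.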

Additional observations from a re-analysis of the deposited data

How the results depend on the processing

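Over 14 alternative settings, 9 of the 12 genes that passed kept their call and direction in each one, namely ATF4, DDIT3, TRIB3, ATF6, HSPA5, CALR, EDEM1, SYVN1 and DERL1. The calls of PPP1R15A, MANF and CANX were lost in 1, 6 and 8 settings, and no called gene reversed. EIF2AK3, CHAC1, CRELD2, XBP1, DNAJB9, PDIA6 and P4HB gained a call in at least 1. Leaving out 1 library at a time gave 5 to 6 genes higher and 5 to 6 lower. In those fits PERK-ATF4 had 0 to 1 higher, IRE1-XBP1 0 to 1 higher and 0 to 1 lower, the other folding enzymes 0 to 1 lower, other pathway genes 13 to 17 higher, all tested genes 1932 to 2093 higher, and the median of the 34 ran from -0.00401 to 0.018. Without a filter on low values 1 of the other folding enzymes was higher. With quantile normalization 2 were higher and 0 lower, and the median of the 34 was 0.033. The median of all tested genes moved up under that setting too, to 0.0176 from 0.00122. Without shNC replicate 1 and shTDP43 replicate 3 together, which leaves fewer libraries, 1 IRE1-XBP1 gene was higher and 1 lower, 0 of the other folding enzymes were lower, 11 other pathway genes were higher (19 with all libraries) and 1563 of all tested genes were higher (2448 with all). With the replicate block, 7 of the 34 were higher and 5 lower, and 0 of the other folding enzymes were lower, since CANX lost its call (limma adjusted p = 0.0799) while CRELD2 passed (limma adjusted p = 0.0297). The replicate numbers were treated as names, since no source used here ties them to cultures. Deviations of same-numbered libraries correlated across genes at r = -0.0683, 0.0644 and 0.112, and not every library correlated best with its own number. With so few libraries these correlations cannot show whether same-numbered libraries shared a culture or batch. Causes of the shifts between settings were not tested. Absolute depth is unknown, so no counting error can be given for any value.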
